A study of Homo sapiens with 3 samples.

Results

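The fatty acid-binding protein family was followed in CAMA1, a human mammary carcinoma line that is estrogen receptor-positive and carries amplified FGFR1. All rows of the deposited gene table whose name is FABP1, FABP2, FABP3, FABP4, FABP5, FABP6, FABP7, FABP9, FABP12 or PMP2 were taken, which gave 10 genes of 26485 in the table. The family was selected on the measured level of FABP7 in these same libraries, so levels are described and not tested. There was 1 group of 3 libraries, from cells of low passage (below 10) kept for 48 h in medium lacking estradiol, and no treated cells. The labels number the libraries as replicates without saying whether they came from separate cultures, so every p-value below measures only the spread between them, which may be technical.

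Fatty acid-binding proteins are small cytosolic proteins that hold a long-chain fatty acid or a related lipid inside a barrel of beta strands. They carry these poorly soluble molecules to membranes, mitochondria, lipid droplets and, in several cases, to nuclear receptors such as the PPARs. Members are named for the tissue where each was first found, as in the liver (FABP1), intestine (FABP2), heart (FABP3), adipocyte (FABP4), epidermal (FABP5), ileal (FABP6), brain (FABP7), testis (FABP9) and peripheral myelin (PMP2) forms. FABP7 is best known from radial glia of the developing brain, where it binds docosahexaenoic acid, and FABP3 has also been called mammary-derived growth inhibitor.

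FABP7 was the single highly expressed member, FABP5 and FABP3 were low, and the other 7 genes had at most 1 count over all libraries. FABP7, FABP5 and FABP3 reached 10 counts in every library, called detected from here on, a share of 3 in 10, beside 67.3% of 18985 protein-coding genes in the table. No count was found for 5 members (FABP1, FABP4, FABP9, FABP12 and PMP2), beside 13.6% of protein-coding genes. TPM is transcript abundance as a share of the library, with counts scaled by gene length and library total. FABP7 alone had a mean of at least 1000 TPM, 1 member of 10, beside 0.543% of protein-coding genes. As the family was selected on the level of FABP7, that share is no result about the family. Library totals were 26473939 counts for replicate 1, 26592335 for replicate 2 and 30745412 for replicate 3. RNA of bulk cells does not tell a high level in all cells from a higher level in some of them.

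FABP7 (chromosome 6, 122779501 to 122784073 on hg38, plus strand) had 54450, 52987 and 88636 counts in replicates 1, 2 and 3. With the deposited gene length of 999 bases, these were 5502, 5314 and 7556 TPM. Replicates 1 and 2 lay close together and replicate 3 stood above both. The mean was 6124 ± 1244 TPM (SD, n = 3), beside a median of 8.07 TPM over protein-coding genes. FABP7 ranked 4 among protein-coding genes by mean TPM, and between 3 and 4 in the single libraries. It took 0.231 ± 0.0497% of all counts (SD, n = 3). The length used matters for this level: with merged exon lengths of GENCODE release 29, which hold a longer last exon of a second FABP7 transcript (2728 bases in all), it was 3070 ± 637 TPM and ranked 10.

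The whole coding sequences of FABP7 (399 bases) and FABP3 (402 bases) from GENCODE release 29 were 69.6% identical in a global alignment, and their longest common run was 12 bases. Against the other 8 members, FABP7 was between 49.2% (FABP6) and 65.1% (PMP2) identical, and the longest common run with any member was 19 bases, with FABP12. For each of the 10 genes a single coding transcript was taken, with preference for those with 4 coding exons. All those taken had 4, which the choice favoured and which is no finding. The second coding exon of these transcripts was 173 bases long in all except FABP6, where it was 176. The third was 102 bases in 7 of the 10, the exceptions being FABP1 (93), FABP2 (108) and FABP6 (90). FABP7 has 2 processed copies in GENCODE, FABP7P1 and FABP7P2, which were 86.9% and 81.1% identical to its transcript over their aligned parts, with common runs of 32 and 44 bases. Neither is a row of the deposited table. All FABP7 counts were whole numbers, as were those of every other member, FABP5 included. Whole counts therefore do not show whether reads were shared with these copies.

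FABP5, the epidermal form, was the next member. It had 75, 66 and 60 counts in replicates 1, 2 and 3, which came to 10.4, 9.05 and 6.99 TPM (8.80 ± 1.70 TPM, SD, n = 3). Replicate 3, the highest for FABP7, was the lowest for FABP5. FABP7 exceeded FABP5 531-, 587- and 1081-fold in TPM in replicates 1, 2 and 3, a log2 ratio of 9.44 ± 0.55 (SD, n = 3). The FABP5 level is uncertain. GENCODE lists 13 processed copies of FABP5, and one of them, FABP5P7 on chromosome 11, matched the FABP5 transcript in all 405 aligned bases. The counting of reads that match several places is not described in the labels. The 1 copy with a row in the table, FABP5P3 on chromosome 7, had 1.5, 2 and 2 counts.

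FABP3, the heart form, had 18, 22 and 29 counts, or 1.66, 2.01 and 2.25 TPM, in replicates 1, 2 and 3. It lies on chromosome 1 (31365253 to 31373076). The mean was 1.97 ± 0.299 TPM (SD, n = 3), and with deposited lengths the ranges of FABP5 and FABP3 did not overlap. FABP7 exceeded FABP3 by 11.59 ± 0.19 and FABP5 exceeded FABP3 by 2.14 ± 0.50 in log2 TPM. With GENCODE lengths the last difference was 0.55, as FABP5 stood at 4.23 ± 0.773 TPM and FABP3 at 2.89 ± 0.472 TPM.

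The remaining 7 members could not be ordered. FABP6, the ileal bile acid-binding form, had 1 count in replicate 1, and FABP2, the intestinal form, had 1 count in replicate 3. FABP1, FABP4, FABP9, FABP12 and PMP2 had none. With no count in a library, up to 3 counts cannot be told from 0 (counting error only), which is at most 0.538 TPM for FABP1, 0.361 TPM for FABP4, 0.759 TPM for FABP9, 0.716 TPM for FABP12 and 0.0849 TPM for PMP2 in any library. The bounds on the FABP7 excess depend on the gene lengths, and the lower of the values with deposited and with GENCODE lengths is given. FABP7 was at least 9954-fold higher than FABP1, the liver form (deposited lengths), and at least 9038-fold higher than FABP4, the adipocyte and macrophage form (GENCODE lengths). For PMP2, the peripheral myelin form, the bound was at least 23360-fold with GENCODE lengths and 63100-fold with deposited ones. The lowest bounds were those for FABP9 and FABP12, at least 3218-fold and 3969-fold with GENCODE lengths. FABP7 thus made up 99.8 ± 0.0530% of the TPM of the family (SD, n = 3).

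**Figure D1:**
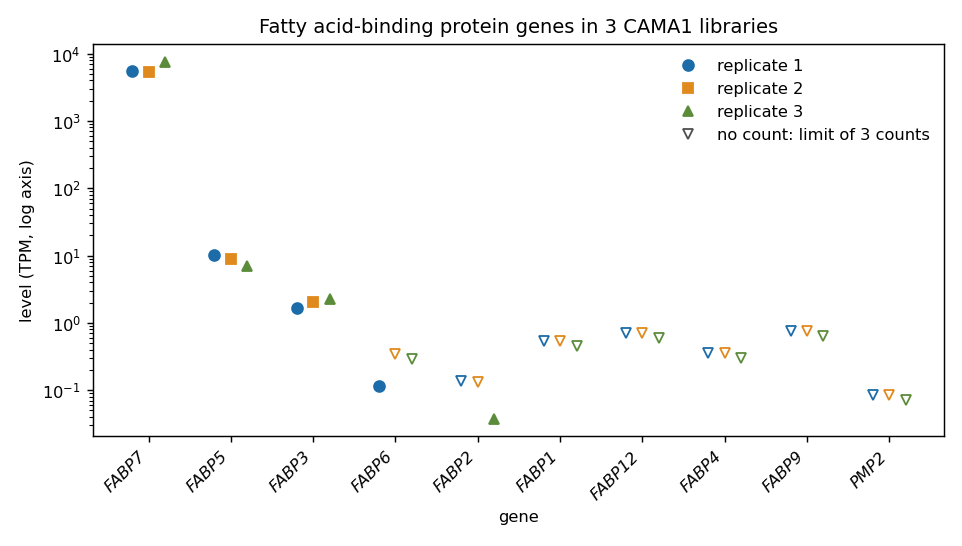
Level of each family member in TPM (log axis) in the 3 CAMA1 libraries, with filled symbols for measured values and open triangles for the limit of 3 counts where a library had none. FABP7 lies between 5314 and 7556 TPM, FABP5 between 6.99 and 10.4 TPM and FABP3 between 1.66 and 2.25 TPM, while FABP6 and FABP2 have 1 count each and the other 5 have none.

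The genes whose levels were most like FABP7, by Euclidean distance over log2(TPM + 1) in the 3 libraries, belonged to other families. MYL6, a myosin light chain gene, was nearest at a distance of 0.615, with 4971, 5125 and 5004 TPM in replicates 1, 2 and 3. The ribosomal protein genes RPS27 (distance 0.632), RPL41 (0.663) and RPS14 (0.920) and the calcium-binding protein gene S100A6 (0.890) completed the 5 nearest. Without division by length, 1 of these 5, S100A6, was still among the nearest 5. The distance sums 3 libraries of 1 condition and describes a like level, nothing more.

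**Figure D2:**
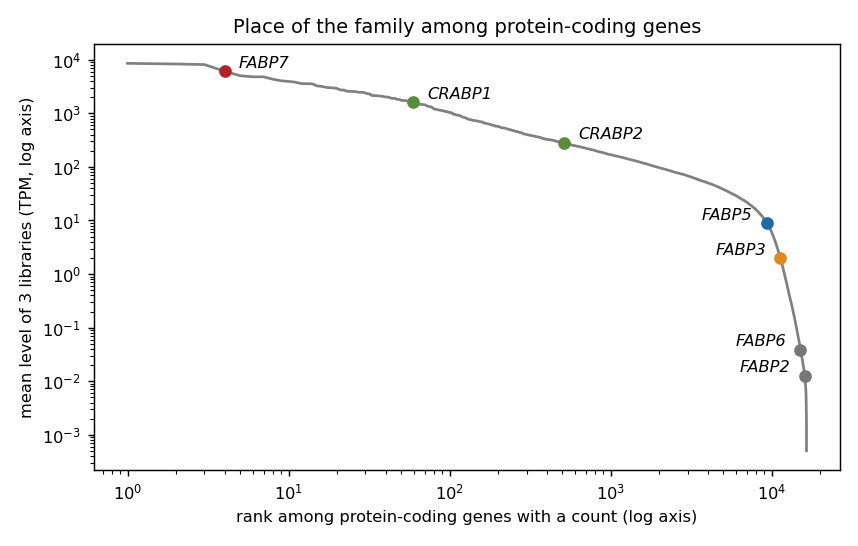
Mean TPM of 3 libraries (log axis) against rank (log axis) for protein-coding genes with a count, as a line, with family members and the related genes CRABP1 and CRABP2 as points. FABP7 stands at rank 4, FABP5 and FABP3 lie at 8.80 and 1.97 TPM on the falling part of the line, and FABP6 and FABP2 lie near its end.

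Outside the family but with the same barrel fold, the cellular retinoic acid-binding protein genes were high as well. CRABP1 had 1388, 1493 and 1920 TPM in replicates 1, 2 and 3 (1600 ± 282 TPM, SD, n = 3). CRABP2, whose product hands retinoic acid to its nuclear receptor, had 236, 241 and 361 TPM (279.5 ± 70.9 TPM). Both were highest in replicate 3. FABP5 can carry retinoic acid to PPARD, and its level of 8.80 TPM stood beside 18.6 ± 0.541 TPM for PPARD. These levels depend on the length used: with GENCODE lengths FABP5 stood at 4.23 TPM, PPARD at 25.5 TPM and CRABP2 at 405 TPM. Of the 6 relatives examined, 4 were detected, a share near the 67.3% of protein-coding genes. RBP5, a retinol-binding protein gene, was the third highest at 5.19 ± 0.417 TPM.

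FABP7 lies between genes of quite different levels. On its lower side, PKIB, a protein kinase A inhibitor gene that ends 53127 bases away, stood at 63.3 ± 2.50 TPM, SERINC1 at 184.9 ± 3.56 TPM and the heat shock factor gene HSF2 at 12.7 ± 1.20 TPM. On its higher side, SMPDL3A, a phosphodiesterase gene on the same strand, begins 4975 bases after FABP7 ends. It had 118.3, 118.1 and 165 TPM in replicates 1, 2 and 3, highest in the same library as FABP7. Beyond it, CLVS2 had 0, 4 and 0 counts and TRDN 4, 4 and 1.

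Within the other locus, 5 members lie in 251 kb of chromosome 8 (81280483 to 81531315) with no other row of the table between them: FABP5, PMP2, FABP9, FABP4 and FABP12. FABP5 alone had counts. The genes on its lower side were PAG1 at 2.69 ± 0.169 TPM, ZNF704 at 43.6 ± 2.32 TPM and ZBTB10 at 8.48 ± 1.12 TPM. Those beyond FABP12 were IMPA1 at 22.6 ± 1.41 TPM, SLC10A5 at 1.68 ± 0.280 TPM and ZFAND1 at 62.7 ± 2.66 TPM. All 6 flanking genes had counts in each library, while the 4 members between FABP5 and IMPA1 had none in any.

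**Figure D3:**
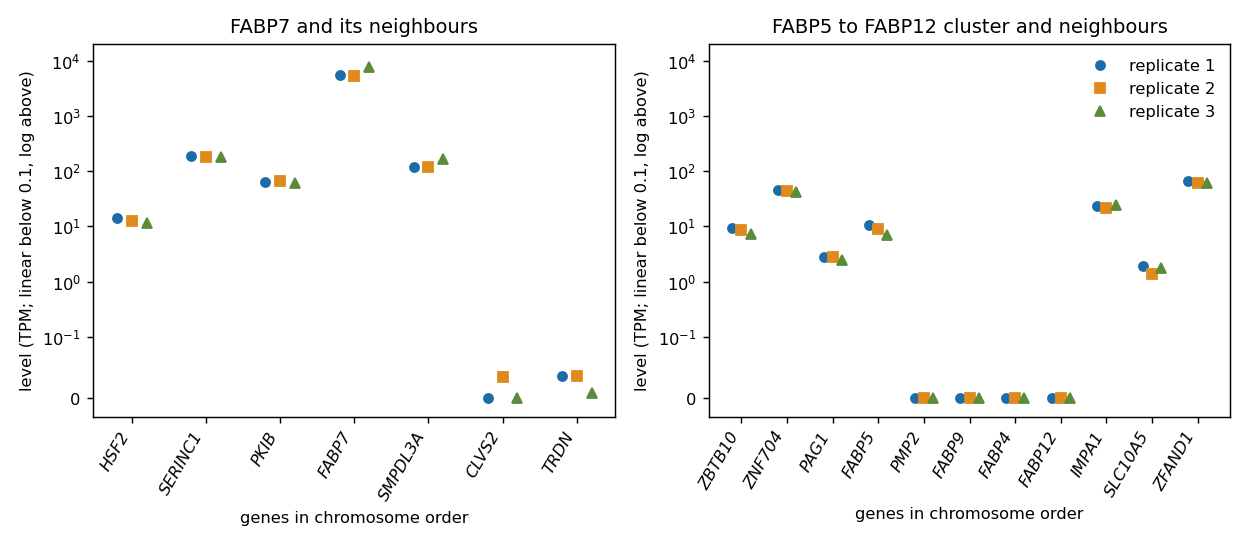
Level in TPM (linear below 0.1, log above) of FABP7 with 3 protein-coding genes on each side (left) and of the FABP5 to FABP12 cluster with 3 on each side (right), in chromosome order, 1 symbol per library. FABP7 stands above its neighbours, SMPDL3A is highest in replicate 3 like FABP7, and PMP2, FABP9, FABP4 and FABP12 lie at 0 between flanking genes that have counts.

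Replicate 3 carried more FABP7 than the other libraries, but the difference did not pass the test over all genes. Counts scaled to library size with TMM factors, not to gene length (CPM), were 2037, 1994 and 2915 in replicates 1, 2 and 3, so that replicate 3 was 1.45 times the mean of the others. Each gene was tested for variation between libraries beyond the negative binomial spread of genes of like level in edgeR. FABP7 had an adjusted p of 0.0516 in this edgeR test, just outside the threshold of 0.05. In simulated data the test recovered only 8.96% of genes changed 1.5-fold in a single library. That share is for 67 genes together and was not split by level, so it does not give the chance of a call for FABP7. Genes with a ratio of replicate 3 to the mean of the others near this size went both ways. SMPDL3A (1.44) and CRABP2 (1.57) were called, while PPARA (1.52) and CRABP1 (1.38) were not. A gene that is not called may thus still differ by about this size, which holds for the gene lists below as well. By the edgeR test 0 of the 3 members in the fit were called, 1 of 3 had an unadjusted p under 0.05, and a Poisson chi-square test called 1 of 3, FABP7. Over all 14453 genes the edgeR test called 1.31%, the unadjusted p was under 0.05 in 6.07%, and the Poisson test called 41.6%. Without replicate 3 the FABP7 adjusted p from edgeR was 0.999, and the number of genes called was 25 in place of 190; it was 94 without replicate 1 and 67 without replicate 2. FABP5 and FABP3 had edgeR adjusted p-values close to 1.

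SMPDL3A, the gene next to FABP7, had 86.4, 87.5 and 125.6 CPM and passed the test (edgeR adjusted p = 0.0215), with replicate 3 at 1.44 times the mean of the others. Its call was lost without replicate 1 (adjusted p = 0.0608), replicate 2 (0.336) or replicate 3 (0.999), each from edgeR. PKIB, SERINC1 and HSF2, on the other side of FABP7, had ratios of 0.972, 1.01 and 0.915 and were not called. CRABP2 had 102, 105.3 and 162 CPM and varied between libraries (edgeR adjusted p = 0.000631, and 0.0757 without replicate 2 or 0.999 without replicate 3). CRABP1, at 397, 433 and 573 CPM, did not pass (edgeR adjusted p = 0.117). Among 9999 genes with a mean of at least 10 CPM, 1.03% had at least 1.4 times as much in replicate 3 as in the mean of the others. Of the 190 genes called, 74 were highest in replicate 3 (0.512% of genes tested, and 0 of the 3 members in the fit), 61 in replicate 1 and 55 in replicate 2. The part of library 3 as a whole in these values was not tested.

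**Figure D4:**
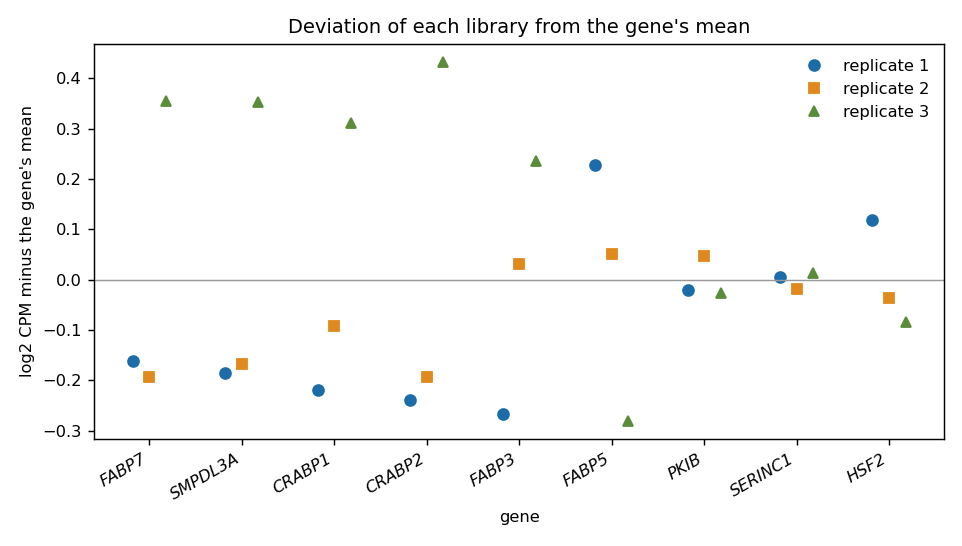
Log2 CPM of each library minus the mean of the gene over 3 libraries, for FABP7, its neighbour SMPDL3A, the related genes CRABP1 and CRABP2, the members FABP3 and FABP5, and the genes on the other side of FABP7. FABP7, SMPDL3A, CRABP1, CRABP2 and FABP3 are highest in replicate 3, FABP5 is lowest there, and PKIB, SERINC1 and HSF2 lie nearer to 0 than FABP7, which reaches 0.36 in replicate 3.

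Of 16 genes that bring fatty acids into the cell and activate them, 12 were detected, beside 67.3% of protein-coding genes. The median was 2.30 TPM beside 8.07 TPM over protein-coding genes. The acyl-CoA synthetase genes ACSL3 (133 ± 2.77 TPM) and ACSL1 (86.9 ± 1.94 TPM) and the fatty acid transport protein gene SLC27A4 (84.7 ± 2.79 TPM) were highest. With GENCODE lengths SLC27A4 (119 TPM) stood above ACSL3 (110 TPM) and ACSL1 (89.8 TPM). CD36, the fatty acid translocase gene, had 7.08, 2.5 and 2.25 counts. Of 20 genes of fatty acid oxidation 19 were detected, with a median of 59.3 TPM, led by ETFA (603 ± 40.9 TPM), which passes on electrons from acyl-CoA dehydrogenases, HADHB (224 ± 6.37 TPM) and DECR1 (196 ± 8.49 TPM). These levels depend on the length used: with GENCODE lengths the median of the oxidation list was 37.1 TPM, ETFA stood at 222 TPM, HADHB at 163 TPM and DECR1 at 95.8 TPM, and CPT1A, at 209 TPM, was second to ETFA. The edgeR test called 0 of the 12 uptake genes and 0 of the 19 oxidation genes in the fit for variation between libraries, beside 1.31% of all genes tested.

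Lipid droplet and triglyceride genes were detected in 15 of 20, beside 67.3% of protein-coding genes, with a median of 6.62 TPM. HILPDA, whose product inhibits triglyceride breakdown, stood at 204 ± 26.7 TPM, the coat protein gene PLIN3 at 96.9 ± 3.31 TPM and the monoglyceride lipase gene MGLL at 94.5 ± 9.67 TPM (52.5 TPM with its GENCODE length). Of 14 genes of polyunsaturated fatty acids and eicosanoids 9 were detected, beside the same 67.3%, with a median of 11.9 TPM. The elongase gene ELOVL5 (388 ± 19.9 TPM), the desaturase gene FADS2 (155 ± 3.59 TPM) and LTA4H (133 ± 1.05 TPM) were highest. With GENCODE lengths the median was 18.6 TPM, FADS2 stood at 74.1 TPM and LTA4H at 60.4 TPM, both below ELOVL2 at 94.3 TPM. ELOVL2, an elongase gene on the route to docosahexaenoic acid, was named after its values were seen. It had 79.3, 76.7 and 47.1 TPM in replicates 1, 2 and 3 and varied between libraries (edgeR adjusted p = 0.000856, and 0.0700 without replicate 2 or 0.999 without replicate 3). ELOVL2 was the 1 gene called of the 9 of this list in the fit, beside 1.31% of all genes tested. ELOVL5 and FADS2 were not called. ELOVL2 was lowest in the library where FABP7 was highest, and a link between the 2 genes was not tested.

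Nuclear receptors that take fatty acid ligands, and their partners, were led by RXRA at 89.2 ± 10.4 TPM. Of these 8 genes 6 were detected, beside 67.3% of protein-coding genes, and the median was 6.64 TPM. PPARD followed at 18.6 ± 0.541 TPM and RXRB at 12.0 ± 0.305 TPM. The RXRB value rests on a deposited length of 18110 bases that adds up 6 sequences, and with the GENCODE length it was 75.8 ± 2.47 TPM. PPARG, the partner of FABP4 in adipocytes, had 2, 6 and 2 counts. All 15 other lipid carriers were detected, with a median of 58.7 TPM: the lysosomal saposin precursor gene PSAP stood at 629.6 ± 21.5 TPM, the acyl-CoA-binding protein gene DBI at 434 ± 12.2 TPM and STARD10 at 178 ± 10.3 TPM. FABP7 lay above each of these carriers.

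Of 10 factors known from neural and glioma cells to act on FABP7, 9 were detected, beside 67.3% of protein-coding genes, with a median of 43.2 TPM. The receptor genes NOTCH2 (175.8 ± 16.9 TPM) and NOTCH3 (93.2 ± 8.88 TPM) and the nuclear factor I gene NFIB (88.8 ± 5.34 TPM) were highest. RBPJ, the DNA-binding partner of Notch, stood at 54.0 ± 2.94 TPM. PAX6, known upstream of this gene in the rat brain, had 45, 35 and 67 counts (0.484 ± 0.116 TPM), and POU3F2 had none. The edgeR test called 0 of the 9 in the fit, beside 1.31% of all genes tested.

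**Figure D5:**
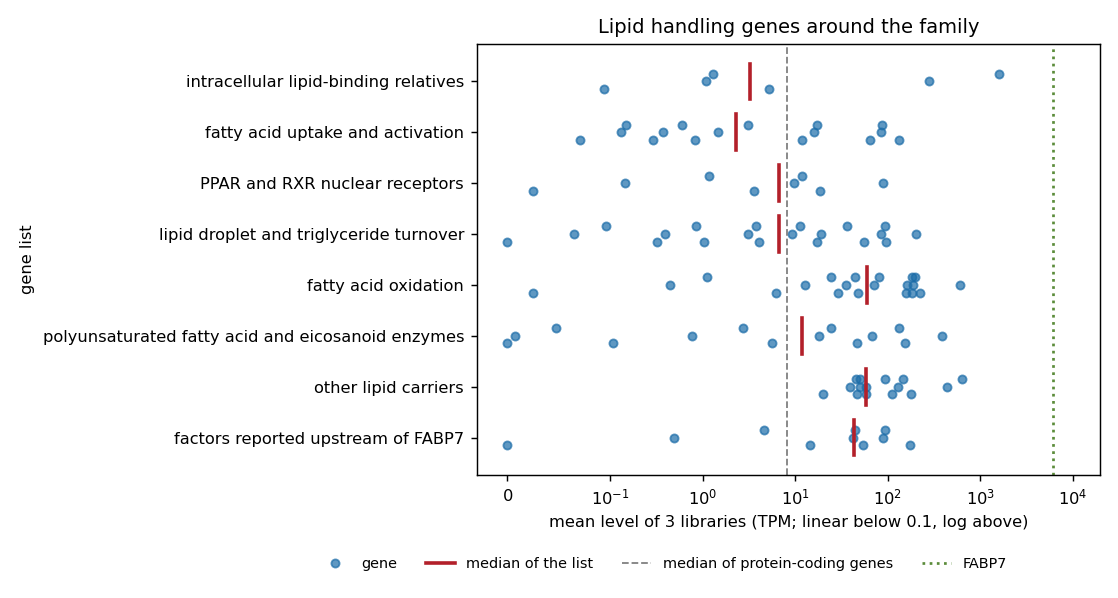
Mean TPM of 3 libraries (linear below 0.1, log above) for each gene of 8 lists around the family, with the median of each list as a red bar, the median of protein-coding genes (8.07 TPM) as a dashed line and FABP7 as a dotted line. Fatty acid oxidation genes, other lipid carriers and factors upstream of FABP7 have medians of 59.3, 58.7 and 43.2 TPM, and no gene of any list reaches FABP7.

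The libraries carried the markers of luminal epithelium, 9 of 9 detected, with KRT19 highest at 3256 ± 605 TPM. The list summed to between 9402 and 11368 TPM. Each share of markers detected, here and below, stands beside 67.3% of protein-coding genes. Of 6 basal markers 4 were detected, summing to between 37.9 and 45.3 TPM, with ACTA2 highest at 31.7 ± 3.32 TPM. Of 9 markers of radial glia and astrocytes, the cells in which FABP7 is best known, 4 were detected, and the list summed to between 17.3 and 21.1 TPM, below FABP7 alone. HOPX was highest at 13.0 ± 1.31 TPM, and SOX2 (3.63 ± 0.569 TPM), NES (1.56 ± 0.407 TPM) and PAX6 were the other detected markers. With GENCODE lengths SOX2 (4.96 TPM) stood above HOPX (4.33 TPM). GFAP had 1, 2 and 6 counts, SLC1A3 1, 1 and 1, and S100B 0, 1 and 0. Schwann cell markers (2 of 7, PMP22 at 29.6 ± 1.76 TPM) summed to between 29.3 and 33.3 TPM. Adipocyte markers (2 of 7, PLIN4 at 1.03 ± 0.0897 TPM) summed to between 1.81 and 2.32 TPM, with no count of LPL, and macrophage markers (2 of 5, CD68 at 3.08 ± 0.470 TPM) to between 3.283 and 5.002 TPM. Enterocyte and hepatocyte markers (1 of 9, ALB at 1.14 ± 0.334 TPM) summed to between 1.52 and 2.10 TPM, endothelial markers (0 of 5, VWF highest at 0.103 ± 0.0389 TPM) to between 0.0898 and 0.317 TPM and male germ cell markers (0 of 5, TNP1 highest, the other 4 without a count) to between 0 and 0.4997 TPM. Muscle markers (2 of 6) summed to between 78.4 and 83.6 TPM, nearly all from the myoglobin gene MB (54.2 ± 0.740 TPM) and TNNI3 (26.4 ± 3.45 TPM, or 15.0 TPM with its GENCODE length), named after its values were seen, with no count of MYH7.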

How the data were processed

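Poly-A RNA of 3 CAMA1 libraries was sequenced after stranded library preparation, per the labels' protocols. The authors deposited expected counts per gene, which need not be whole (whole within 1e-08 for 83.1 ± 0.243% of values above 0), with a length per gene. TopHat, Subread and featureCounts with hg38 are named in the submitters' processing notes; their settings, including strand and reads with several matches, are not given in the sources used here.

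TPM were computed from deposited counts and lengths. Protein-coding genes were set by RefSeq symbols (GRCh38.p14): 23758 names matched as written, 1536 through older symbols, and 1191 had no match. Counts were rounded and fitted in edgeR 4.0.16 with TMM factors (1.01, 1.00 and 0.990), filterByExpr, an intercept and trended dispersion. The residual deviance gave a chi-square p per gene, with Benjamini-Hochberg adjustment over 14453 genes at 0.05; DESeq2 1.42.0 gave alternative size factors. In simulated data for this test over 14453 genes, 95.5% of 67 genes changed 2-fold in 1 library were recovered, and 8.96% of 67 changed 1.5-fold. Log2 ratios used 0.01 TPM added. Coding sequences came from GENCODE release 29 and were aligned with Biopython 1.88.

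The members and lists were chosen with earlier results of these data known. Genes were named by a rule: all members, other FABP rows, the 5 nearest to FABP7, the 3 highest of 8 pathway lists, the highest of 10 marker lists, and 3 neighbours on each side of each locus. Genes given beyond it by counts, CPT1A, SOX2, NES, RBPJ, ELOVL2, TNNI3 and the 1.4-fold line were chosen after values were seen. Alternatives were other lengths, CPM, count minimums, pseudocounts, scalings, tests and leaving out each replicate. Some sequences and marker genes are not reported here.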

Additional observations from a re-analysis of the deposited data

How the results depend on the processing

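FABP7 was the highest member under each length, unit and left-out replicate tried, and its share of family TPM was 99.8% with GENCODE lengths (an alternative chosen after seeing the data) and also without any 1 replicate. Its level was 3070 TPM with GENCODE lengths and between 5408 and 6529 TPM without single replicates. Its rank was 6 on CPM, 10 with GENCODE lengths and 4 without any 1 replicate. Detected members numbered 2 at 20 counts and 3 at the other minimums. The Poisson chi-square test called 6018 genes and 1 member, FABP7, whose adjusted p it put at 1e-300 (the smallest written), since that test takes no spread between replicates; leaving out single replicates gave 25 to 94 genes, with fewer libraries. The FABP7 adjusted p from edgeR was 0.0508 with DESeq2 size factors, 0.0641 with library totals, 0.0533 with no filter and between 0.0553 and 0.999 without single replicates. List medians moved by more than their spread between libraries in 6 of 54 cases without single replicates, in 9 of 18 lists with GENCODE lengths and in 12 of 18 on CPM. Medians in CPM are in another unit than those in TPM, so the 12 of 18 does not measure stability. RefSeq exon lengths were planned but not run, as only gene spans were at hand. No paired analysis was possible because there was 1 group. Depth limits the members at 0 to 1 count, for which levels under the 3-count limit were not detectable.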

Other observations

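Genes whose libraries deviated from their own mean most like FABP7 were sought among protein-coding genes with a mean of at least 10 CPM, a search chosen after seeing the data. The calcium channel gene CACNA1D was nearest, with 39.7, 39.2 and 56.5 CPM in replicates 1, 2 and 3, followed by NDUFA3 (24.9, 24.8 and 35.8 CPM), a gene of respiratory complex I, and PDRG1 (76.3, 75.2 and 111 CPM). ANOS1 and IL17REL completed the 5 nearest. SMPDL3A, the next gene on the FABP7 strand, was in place 8 of 9571 genes. With 3 libraries many genes can share such a pattern, and the order describes these libraries only.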
